A study of Mus musculus with 2 samples.

Results

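Nuclear receptors are transcription factors, many of which are switched by a small lipid-soluble ligand such as a steroid, thyroid hormone, vitamin D, a fatty acid or a bile acid. The open chromatin of 38 nuclear receptor genes was examined in the neural tube, the part of the embryo that forms the brain and spinal cord, among 21853 protein-coding genes in all. The 38 genes were taken from a list of gene symbols, and all 38 were found in the GENCODE vM21 annotation of the mm10 mouse genome. They fall into 7 subfamilies, NR0 to NR6, with 16 genes in NR1, 8 in NR3, 6 in NR2, 3 in NR4, 2 each in NR0 and NR5 and 1 in NR6. Other genes of the superfamily are not analysed here.

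The tissue came from embryos of the B6NCrl mouse strain at 11.5 days of development, with both sexes pooled, and the labels name no treatment or allele. DNase-seq, which sequences the ends of DNA fragments cut out of nuclei by the enzyme DNase I and so maps accessible DNA, was run on 2 biological replicates that carry the same donor label. There is only 1 group, so comparisons were made among genes within each library, the other library shows how far a value repeats, and no test across samples was possible. Neural tube holds many cell types, and a weaker peak in more cells cannot be told apart from a stronger peak in fewer cells.

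A nuclear receptor binds DNA through a zinc finger domain, most often at copies of the 6-letter core motif AGGTCA, alone or as a pair with its partner, and then recruits coactivators that loosen chromatin or corepressors that compact it. Receptors without a known hormone are called orphan receptors, and several of them act in the developing nervous system: Nr2e1 keeps neural stem cells dividing, Nr4a2 is needed by midbrain dopamine neurons, and Rora is needed by Purkinje cells of the cerebellum. Others are best known in liver, gut and fat, where they sense bile acids, oxysterols, fatty acids and foreign compounds. Many nuclear receptor genes have several promoters, each of which can give a transcript with its own first exon.

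The deposited list of replicate 1 held 199653 different peaks and that of replicate 2 held 154324, each peak a window of 150 bp with a whole-number score. The median score was 45 in replicate 1 and 26 in replicate 2, so scores were read only by their percentile within a list. The labels name 1 more sequencer model for replicate 2 than for replicate 1, and its part in these differences was not tested. A gene counted as open at the promoter when 1 of its transcription start sites (TSSs) had a peak no more than 500 bp away. Peaks centred over 1000 bp from all protein-coding TSSs were called distal and given to the gene whose TSS was nearest. The territory of a gene is the stretch of genome for which that gene has the nearest protein-coding TSS.

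Of the 38 nuclear receptor genes, 33 had a promoter peak in replicate 1, against 68.5% of all protein-coding genes, and 33 had one in replicate 2, against 67.7%. The same 33 were open in both libraries, which is 86.8% of the members with an exact binomial 95% interval of 71.9% to 95.6%, beside 66.5% of all genes. The other 5 had no promoter peak in either library. They were Nr0b2, Nr1h5, Nr1i2, Nr1i3 and Nr2e3, and no member was open in a single library.

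All 7 receptors grouped as steroid and gonad receptors were open, as were both clock receptors and all 5 receptors in no other role group. Of the 10 neural receptors 9 were open, and of the 14 metabolic receptors 10 were open. The neural group was Nr2e1, Nr2e3, Nr4a1, Nr4a2, Nr4a3, Rora, Rorb, Thra, Thrb and Esrrg. The metabolic group was Nr0b2, Nr1h2, Nr1h3, Nr1h4, Nr1h5, Nr1i2, Nr1i3, Ppara, Ppard, Pparg, Nr5a2, Hnf4g, Esrra and Vdr. By subfamily, 13 of 16 NR1 genes, 5 of 6 NR2 genes and 1 of 2 NR0 genes were open, together with all 8 of NR3, all 3 of NR4, both of NR5 and the single NR6 gene. These groups are small: the 95% interval of the open share was 55.5% to 99.7% for neural receptors and 41.9% to 91.6% for metabolic ones, so the intervals overlap over most of their length.

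Of the 4 metabolic receptors without a promoter peak, Nr0b2, Nr1i2 and Nr1i3 act mainly in liver and gut. Nr0b2 (SHP), on chromosome 4, positions 133553376 to 133556536, is a receptor without a DNA-binding domain that represses bile acid synthesis. Nr1i2 (PXR), on chromosome 16, positions 38248323 to 38294824, and Nr1i3 (CAR), on chromosome 1, positions 171213970 to 171220701, sense foreign compounds. Nr1h5, on chromosome 3, positions 102939658 to 102964133, is the second farnesoid X receptor of mice. Their distal peaks numbered 4 in replicate 1 and 2 in replicate 2 for Nr1h5, 4 and 5 for Nr1i2, 1 and 1 for Nr0b2, and 1 and 0 for Nr1i3, beside a median of 3 and 2 over all genes. The neural receptor without a promoter peak was Nr2e3, a factor of rod photoreceptors on chromosome 9, positions 59942771 to 59960659. It had 15 distal peaks in replicate 1 and 13 in replicate 2, of which 7 were found in both.

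Nr1h4 (FXR), the bile acid receptor, was open with the weakest top promoter peak of the 33, with scores of 32 and 17 at the 25.5 and 26.5 percentiles of their lists. At the other end the top promoter peak of Nr3c2, the mineralocorticoid receptor, scored 144 in replicate 1 and 121 in replicate 2, at the 99.6 and 97.3 percentiles. Esrra, an orphan receptor of mitochondrial genes, scored 143 and 130, and Ppard, a fatty acid receptor present in most tissues, scored 142 and 131. Nr1d2, a repressor of the circadian clock, and Nr2c2, an orphan receptor first found in testis, both scored 141 and 133. Rxrb, a retinoid X receptor and the common partner of many receptors here, scored 143 and 129, but its nearest TSS lies 150 bp from one of Slc39a7, and the peaks of these genes cannot be told apart. The same holds for Nr2e1, whose upstream TSS lies 203 bp from one of Ostm1 and whose top promoter peak scored 111 and 63.

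TSSs of 1 gene up to 1000 bp apart were joined into 1 promoter, which gave 75 promoters for the 38 genes. A peak lay within 500 bp of 45 of them in both libraries, of 3 in a single library and of 27 in neither. The 25 members with 2 or more promoters had 62, of which 36, or 58.1%, were open in both libraries, against 39.3% of the promoters of all genes with 2 or more. Of these 25 members, 11 had at least 2 promoters open in both libraries, a state found in 20.4% of all genes with 2 or more promoters. Another 13 had exactly 1 open promoter and Nr1h5 had none.

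Among the members with 2 or more promoters, those with every promoter open in both libraries were Rora, Esrrg, Nr4a1, Esr1 and Nr6a1. The 2 promoters of Rora lie at positions 68653786 and 69289682 of chromosome 9, at the start of the long and of the short form of the gene. Their top peaks scored 122 and 121 in replicate 1 and 104 and 96 in replicate 2, so the top scores at both promoters were close within each library. The 2 promoters of Esrrg on chromosome 1 scored 94 and 71 at the upstream one and 111 and 98 at the internal one. Esr1, the estrogen receptor alpha gene, had a weak peak at its upstream promoter, with scores of 21 and 7 at the 4.18 and 3.41 percentiles, and a stronger one at the internal promoter, with 58 and 36 at the 62.7 and 64.4 percentiles. Nr6a1, an orphan receptor that represses pluripotency genes in the early embryo, was open at all 3 promoters, with the weakest peak, 40 and 17, at the internal one.

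In 5 members the most upstream promoter had no peak in both libraries while a later one was open: Esrrb, Nr3c1, Nr5a1, Nr5a2 and Vdr. In Nr5a2 (LRH-1), a receptor of liver, pancreas and pluripotent cells, the promoter at position 136960448 of chromosome 1 had no peak or hotspot, a hotspot being a broader region of enriched cutting that the authors deposited. Its internal promoter at 136953630 had top scores of 50 and 60, and the next, at 136949173 to 136949562, had 120 and 90. In Nr5a1 (SF-1), a regulator of adrenal and gonad development, the promoter at position 38714542 of chromosome 2 had no peak, and the one at 38712234 had 94 and 48. That open promoter had a GC content of 69.3% and a ratio of observed to expected CpG dinucleotides of 0.882, against 58.1% and 0.238 at the upstream one. Esrrb, a receptor of pluripotent cells and the placenta, was open only at its middle promoter, with scores of 102 and 69. Vdr, the vitamin D receptor, was open in both libraries only at the third of its promoters, with 82 and 51.

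In 8 members with 2 promoters the upstream one was open and the internal one was not: Esr2, Hnf4g, Nr1h4, Nr2c1, Nr2e1, Ppard, Rorb and Thra. Thrb, the thyroid hormone receptor beta gene, was open at its upstream promoter on chromosome 14, with scores of 120 and 106, and had no peak at the internal ones at positions 17962821 and 17981529. Pparg, the fatty acid receptor that drives fat cell differentiation, was open at its most upstream promoter, with 89 and 62, and at the next, with 42 and 12. It had no peak at the third or at the most downstream one, at position 115422066, where the transcript of the form best known in fat cells starts. Nr3c1, the glucocorticoid receptor, had 6 peaks in each library over its CpG-dense promoter cluster, with top scores of 123 and 108.

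The state of 3 promoters differed between the libraries. The third promoter of Nr4a2 had 2 peaks in replicate 1, with a top score of 46, and none in replicate 2, and the second promoter of Vdr had 1 peak in replicate 1, with a score of 29, and none in replicate 2. The second promoter of Nr4a3 had a peak in replicate 2 alone, with a score of 47, although hotspots covered that window in both libraries.

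Most mammalian promoters fall into a class rich in CpG dinucleotides and a class poor in them, and the promoters here were divided at a ratio of observed to expected CpG of 0.6 with a GC content of 50%. Of the 28 CpG-rich promoters of nuclear receptor genes 27 were open in both libraries, against 98.6% of CpG-rich promoters of all genes. Of the 47 CpG-poor ones 18 were open in both and 26 in neither, and 26.9% of CpG-poor promoters of all genes were open in both. The exception among the CpG-rich ones was the third promoter of Esrrb, with a ratio of 0.623. The median ratio was 0.684 over the 45 promoters open in both libraries and 0.227 over the 27 without a peak. All 6 promoters of the 5 genes without a promoter peak, including both of Nr1h5, were CpG-poor. Strong promoters were not all CpG-rich, since Nr1d1, with scores of 126 and 110, had a ratio of 0.438.

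**Figure D1:**
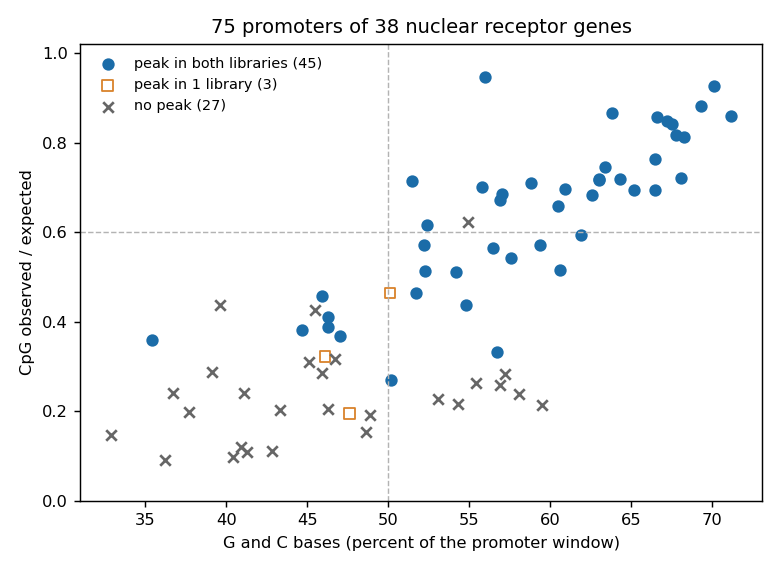
The 75 promoters of the 38 nuclear receptor genes by GC content (percent, x axis) and by the ratio of observed to expected CpG dinucleotides (y axis) within 500 bp of their TSSs; filled circles had a peak in both libraries (45), open squares in 1 library (3) and crosses in none (27). Dashed lines mark a ratio of 0.6 and a GC content of 50%, and 27 of the 28 promoters above both lines were open.

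Pparg and Rorb, an orphan receptor of cortex and retina, each hold an open CpG-rich promoter and a CpG-poor one without a peak. The second promoter of Pparg is an exception, open with scores of 42 and 12 at a ratio of 0.510. The open promoter of Rorb, with a ratio of 0.616, lies just above the limit of 0.6. The bases printed are the 75 to either side of a TSS in the RefSeq GRCm38.p6 sequence, the assembly also called mm10, read in the direction of transcription, with each CG dinucleotide in capitals. For Pparg the open promoter shown is chr6:115360876-115361026 and the promoter shown without a peak is chr6:115421991-115422141, both on the plus strand. For Rorb they are chr19:19111121-19111271 and chr19:19001042-19001192, both on the minus strand.
Pparg, open promoter 1: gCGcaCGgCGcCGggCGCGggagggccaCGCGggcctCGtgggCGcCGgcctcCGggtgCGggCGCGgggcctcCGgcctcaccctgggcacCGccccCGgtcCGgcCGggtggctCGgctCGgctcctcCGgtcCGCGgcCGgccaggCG
Pparg, promoter 4 without a peak: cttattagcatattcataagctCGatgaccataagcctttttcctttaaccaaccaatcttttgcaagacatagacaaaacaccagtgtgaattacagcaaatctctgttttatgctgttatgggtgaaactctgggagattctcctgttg
Rorb, open promoter 1: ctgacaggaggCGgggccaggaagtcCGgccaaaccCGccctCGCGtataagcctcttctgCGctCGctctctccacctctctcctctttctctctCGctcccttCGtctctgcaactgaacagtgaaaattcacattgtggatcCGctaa
Rorb, promoter 2 without a peak: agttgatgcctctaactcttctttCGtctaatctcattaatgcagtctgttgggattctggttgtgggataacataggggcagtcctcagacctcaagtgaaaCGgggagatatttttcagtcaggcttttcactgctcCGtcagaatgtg
The open Pparg window holds 27 CG dinucleotides and the window at its promoter 4 holds 1. The open Rorb window holds 10 and the window at its promoter 2 holds 3.

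The 38 genes held 622 distal peaks in replicate 1 and 470 in replicate 2. The mean of both libraries had a median of 9.00 peaks per gene over the nuclear receptor genes and of 2.50 over all genes. A gene needed at least 18 distal peaks to stand in the top 10% by number, which 9.73% of all genes reached, and 11 of the 38 did. Their territories were also longer, with a median of 110 kb against 46.4 kb over all genes. Per Mb of territory the median was 70.5 peaks for the members and 45.7 for all genes. By this measure 6 of the 38 stood in the top 10%, which 10% of all genes reached. Among the 6, Rxrb had 1 and 1 peaks in 4.18 kb and Nr1h3 had 1 and 3 in 9.67 kb. Vdr had 1 peak in replicate 1 and 34 in replicate 2. The others were Nr1d1, Thra and Nr2e1. When all peaks were divided by all territory, the members had 45.1 peaks per Mb in replicate 1 and 34.1 in replicate 2, against 59.9 and 44.3 for all genes, so the direction depended on how genes were weighted. Hnf4g alone held 4426 kb of the 13.8 Mb of territory.

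**Figure D2:**
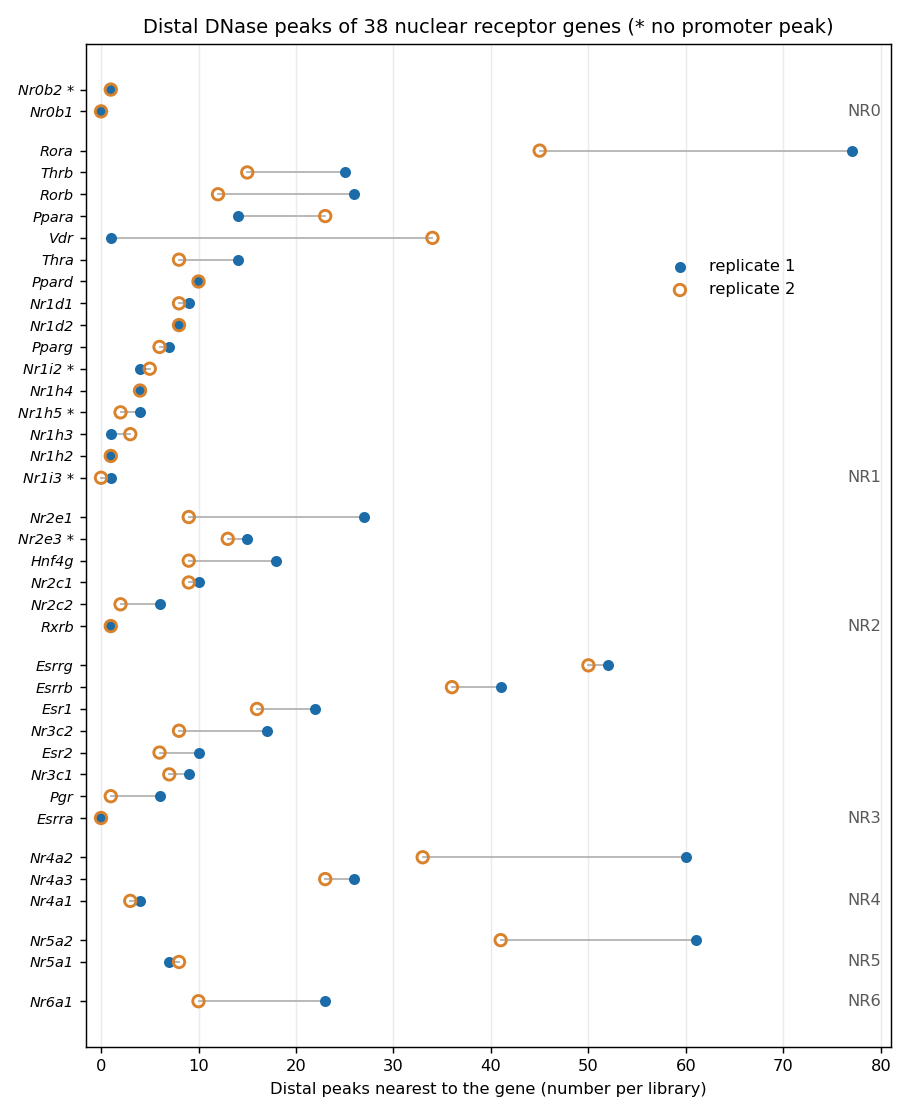
Number of distal peaks nearest to each of the 38 nuclear receptor genes (x axis), in replicate 1 (filled) and replicate 2 (open), grouped by subfamily; an asterisk marks the 5 genes without a promoter peak. Rora, Esrrg, Nr5a2, Nr4a2 and Esrrb had over 30 peaks in both libraries, and the points of Vdr lie at 1 and 34.

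Rora, on chromosome 9, positions 68653786 to 69388246, had the most distal peaks of the 38, with 77 in replicate 1 and 45 in replicate 2, and 70 and 41 of them lay in its own introns. Esrrg, an orphan receptor of energy metabolism that is active in brain, had 52 and 50, and 28 of the 52 were found again in replicate 2. Nr5a2 had the same mean, 51.0, with 61 and 41, and 43 and 30 of them lay between genes, as far as 581 and 507 kb from the nearest Nr5a2 TSS. Nr4a2, on chromosome 2, positions 57106830 to 57124003, had 60 and 33. In replicate 1, 33 peaks with gaps of up to 2500 bp formed a run over and beside the short gene, from 57102316 to 57117845, where replicate 2 had 22, and the most distant peaks lay 797 and 791 kb away. Esrrb had 41 and 36, up to 101 and 86.9 kb from its nearest TSS.

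**Figure D3:**
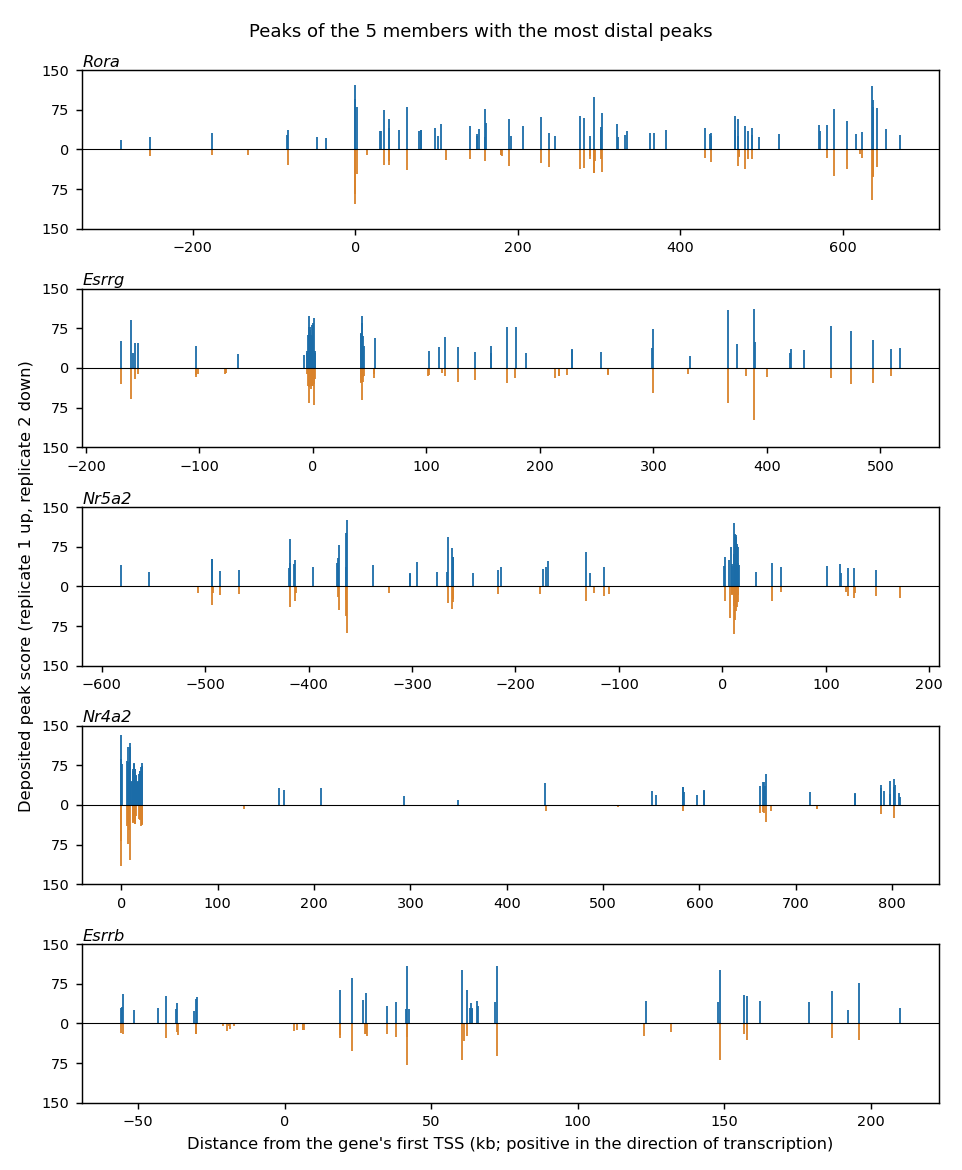
Promoter and distal peaks of Rora, Esrrg, Nr5a2, Nr4a2 and Esrrb by distance from the most upstream TSS (kb, x axis, positive in the direction of transcription) and deposited score (y axis), with replicate 1 drawn upward and replicate 2 downward. Peaks of Rora fill the gene body, those of Nr5a2 reach far upstream of the gene, and those of Nr4a2 crowd at the gene and lie sparsely as far as 797 kb from the nearest Nr4a2 TSS.

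The next members by number were Nr4a3 with 26 and 23 distal peaks, Thrb with 25 and 15, Rorb with 26 and 12, Esr1 with 22 and 16 and Ppara, the fatty acid receptor of liver, with 14 and 23. Nr2e1, on chromosome 10, positions 42561963 to 42583632, had 27 and 9. Its territory is only 48.2 kb, so that it held 374 peaks per Mb and was the only member in the top 10% by both number and density. Its mean of 18 stood exactly at the limit for number, and 5 of the 27 peaks of replicate 1 were found again in replicate 2. In replicate 1, 40 peaks stood in a run of 20970 bp from 42572316 to 42593285, which covers the upstream part of the gene and reaches past its start on the side of Ostm1, and replicate 2 had 18 peaks there. Nr1d1, with 9 and 8 peaks in 21 kb, was the densest member with 405 per Mb, followed by Thra with 14 and 8 peaks in 28.8 kb and 381 per Mb. These genes are neighbours on chromosome 11 whose ends overlap, between positions 98767932 and 98769006. At the low end Nr0b1 (DAX1), a repressor in adrenal and gonad, and Esrra had no distal peak in either library, and Rxrb, Nr1h2 and Nr0b2 had 1 in each. Esrra had 4 and 3 promoter peaks and a territory of 7.73 kb.

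Among subfamilies, the mean number of distal peaks ranged in NR1 from 0.5 for Nr1i3 to 61.0 for Rora, in NR2 from 1.00 for Rxrb to 18 for Nr2e1, and in NR3 from 0 for Esrra to 51.0 for Esrrg. In NR4, whose genes respond quickly to neuronal activity and growth factors, it ranged from 3.50 for Nr4a1 to 46.5 for Nr4a2. In NR5 it was 7.50 for Nr5a1 and 51.0 for Nr5a2. The spread inside each subfamily of 3 or more was thus wider than the gap between the medians of NR1 (8.25), NR2 (11.5), NR3 (10.2) and NR4 (24.5).

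The neural receptors had a median of 19.5 distal peaks per gene and the metabolic receptors 4.25, a ratio of 4.59. The ratio was 6.50 in replicate 1 and 3.11 in replicate 2. It depends on how genes were assigned, and both lists were chosen with earlier results of these data known. Esrrg, with 52 and 50 peaks, was counted as neural, and Esrra, with 0 and 0, as metabolic. In sum the 10 neural receptors held 326 peaks in replicate 1 and 211 in replicate 2, and the 14 metabolic receptors held 127 and 139. In the top 10% by number stood 7 of the neural and 2 of the metabolic receptors, Nr5a2 and Ppara. Taken by library, Ppara (14 and 23 peaks) reached the limit of 18 only in replicate 2. The neural receptors Nr2e1 (27 and 9), Rorb (26 and 12) and Thrb (25 and 15) reached it only in replicate 1. The groups overlapped, since Nr4a1 had 4 and 3 peaks and Nr5a2 had 61 and 41. The territories differed in the same direction, with a median of 520 kb for neural and 66.8 kb for metabolic receptors. Per Mb of territory the medians were 71.6 for neural and 68.4 for metabolic receptors, a ratio of 1.05. When all peaks of a group were divided by all its territory, the neural receptors had 65.3 and 42.2 peaks per Mb and the metabolic receptors 21.6 and 23.6, with Hnf4g holding 4426 kb of the 5.88 Mb of the metabolic group. By density 2 of the neural receptors, Thra and Nr2e1, and 2 of the metabolic ones, Nr1h3 and Vdr, stood in the top 10%. The density of Vdr was 15 peaks per Mb in replicate 1 and 509 in replicate 2, where most of its peaks form a run of weak peaks.

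**Figure D4:**
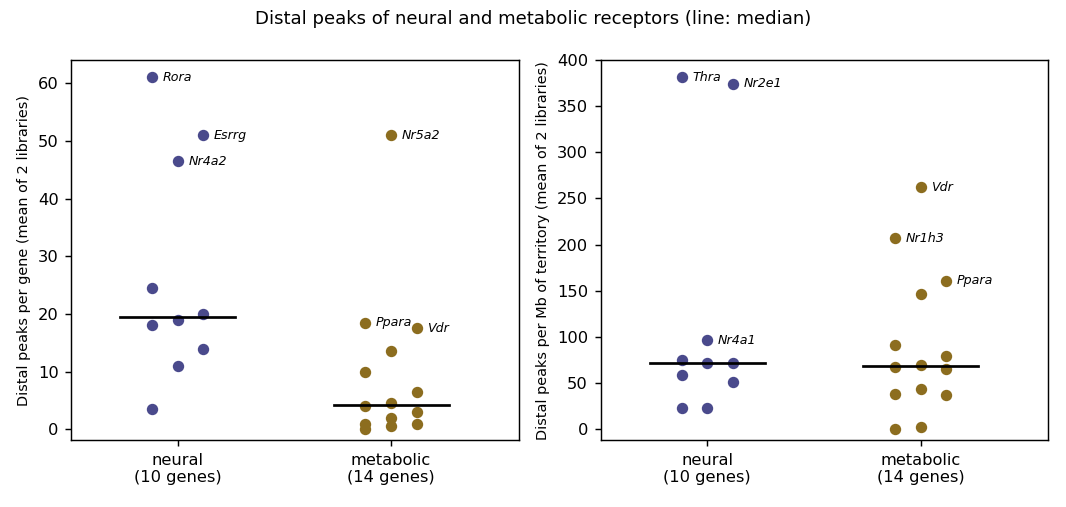
Distal peaks of the 10 neural and the 14 metabolic receptors, each point 1 gene and the mean of both libraries, as a number per gene (left panel, y axis) and per Mb of territory (right panel, y axis); lines mark medians. The medians are 19.5 and 4.25 per gene, and 71.6 and 68.4 per Mb.

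Distal peak numbers of 5 members with 10 or more peaks in a library differed by over 2-fold between the libraries: Vdr (34-fold), Nr2e1 (3-fold), Nr6a1 (2.30-fold), Rorb (2.17-fold) and Nr3c2 (2.12-fold). In Nr2e1, Nr6a1, Rorb and Nr3c2 replicate 1, the longer list, had more peaks, with 23 against 10 for Nr6a1 and 17 against 8 for Nr3c2. Vdr went the other way, with 1 distal peak in replicate 1 and 34 in replicate 2. The peak of replicate 1, with a score of 47, was found again in replicate 2 with a score of 30. Of the 34 peaks of replicate 2, 28 stood in a run of 12450 bp, chr15:97924556-97937005, from 14.0 to 26.3 kb upstream of the gene, where replicate 1 had 0 peaks. Their scores ran from 2 to 10, and all 28 lay in the lowest 10% of the list.

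Such runs were looked for in the whole genome, as 20 or more peaks with gaps of up to 2500 bp. Replicate 2 had 168 runs, of which 56 had a median score in the lowest 10% of the list, and 8 of these 56 had no peak of the other library inside. Replicate 1 had 225 runs, of which 3 were weak in this sense and 1 had no peak of the other library. Without Vdr the share of the members' distal peaks of replicate 2 found in replicate 1 was 64.7% instead of 60.2%. The part of these runs in the other counts was not tested.

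**Figure D5:**
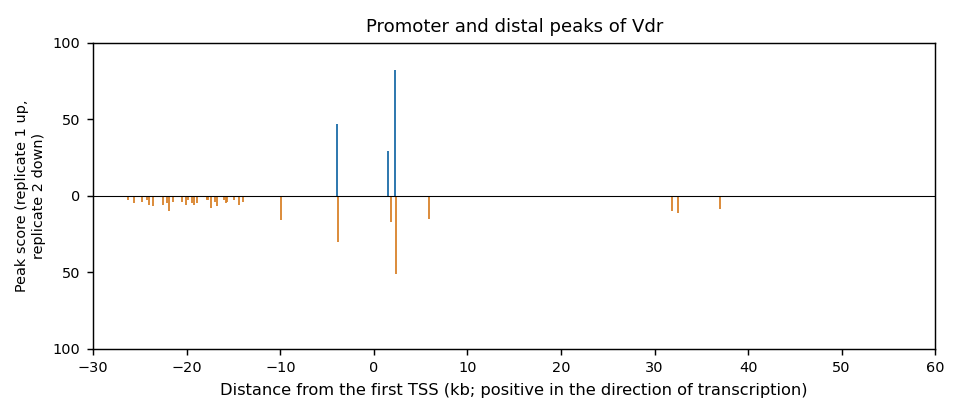
Promoter and distal peaks of Vdr by distance from its most upstream TSS (kb, x axis) and deposited score (y axis), with replicate 1 upward and replicate 2 downward. The 28 peaks between 14.0 and 26.3 kb upstream appear in replicate 2 only, with scores of 2 to 10.

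Of the members' distal peaks in replicate 1, 275 overlapped a peak of replicate 2, which is 44.2% with an exact binomial 95% interval of 40.3% to 48.2%, against 48.1% over all genes. In replicate 2, 283 overlapped a peak of replicate 1, which is 60.2% with an interval of 55.6% to 64.7%, against 66.4% over all genes. These intervals cover counting error only and treat peaks as independent, which neighbouring peaks are not. Peaks of neural receptors were found again in 40.8% of cases from replicate 1 and 66.4% from replicate 2, and those of metabolic receptors in 48.8% and 46.0%. Without Vdr the values for metabolic receptors were 48.4% and, as 63 of 105 peaks, 60%. At least 1 distal peak was found in both libraries for 35 members. The matching share of all genes was not counted, and the members had more distal peaks per gene, with a median of 9.00 against 2.50.

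Pooled over the members, the distal peaks lay more often inside the gene itself than over all genes. In the intron of their own gene stood 50.3% of the members' peaks in replicate 1 and 44.5% in replicate 2, against 34.9% and 34.1% over all genes. Between genes stood 42.3% and 46.0%, against 52.3% and 51.8%. A few genes weigh heavily in these pooled shares. Of the 313 and 209 members' peaks in own introns, Rora held 70 and 41 and Esrrg 35 and 34. The shares without these genes were not computed. Nr6a1 had all of its 23 and 10 distal peaks in its own introns. Few distal peaks stood within 500 bp of the TSS of a noncoding gene, 11 and 12 of the members' peaks, or 1.77% and 2.55%, against 2.55% and 2.96% over all genes. Among them were 3 and 2 peaks of Esrrg at a TSS of Gm36388, an antisense gene.

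How often shared distal peaks of all genes reach the top 10% of both lists by score was not counted. Of the members' 275 distal peaks found in both libraries, 10 did. The strongest by the mean of both percentiles stood 7798 bp upstream of Nr4a1, an immediate early gene of stimulated neurons, at chr15:101246396-101246545, with scores of 144 and 133 at the 99.6 and 99.5 percentiles. Nr4a3, its relative, had the next 2, at 2062 and 1702 bp upstream, with scores of 133 and 128 at chr4:48043016-48043165 and 130 and 130 at chr4:48043376-48043525. The peak after them lay 1302 bp inside Nr1d1 at chr11:98773956-98774105, with 130 and 107. Ppard followed with 127 and 103, 6469 bp upstream and in an exon. Nr6a1 had 2 peaks in its intron 38651 and 39591 bp from its nearest TSS, with 131 and 94 and with 125 and 101. Nr5a1, 23183 bp downstream, and Nr5a2, 363043 bp upstream, came next with 129 and 90 and with 125 and 89. The tenth place went to Nr2e3, a gene without a promoter peak. Its peak lay in an intron of the gene itself, 9394 bp upstream of the protein-coding TSS. That peak scored 115 and 79 and fell short of the top 10% in replicate 2. A peak 64233 bp upstream of Ppara, with 109 and 85, stood in the top 10% of both lists behind it.

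The sequences of these leading peaks and of the peaks with the clearest matches are printed from the plus strand of the RefSeq GRCm38.p6 genome, at the positions of replicate 1. Capitals mark matches on either strand to the motifs named below the sequences, and matches to the Sp box GGGCGG are not marked. The Nr1d2 promoter peak is chr14:18238476-18238625, the Nr6a1 promoter peak chr2:38926316-38926465, the Nr6a1 intron peak chr2:38824036-38824185 and the Nr2c1 distal peak chr10:94093736-94093885.
Nr4a1 distal peak: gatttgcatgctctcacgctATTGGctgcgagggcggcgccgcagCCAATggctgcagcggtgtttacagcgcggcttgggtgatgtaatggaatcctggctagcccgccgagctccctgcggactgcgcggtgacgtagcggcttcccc
Nr4a3 distal peak 1: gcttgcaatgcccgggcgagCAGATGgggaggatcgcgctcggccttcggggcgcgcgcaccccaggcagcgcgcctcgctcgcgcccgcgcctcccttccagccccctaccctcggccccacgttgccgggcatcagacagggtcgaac
Nr4a3 distal peak 2: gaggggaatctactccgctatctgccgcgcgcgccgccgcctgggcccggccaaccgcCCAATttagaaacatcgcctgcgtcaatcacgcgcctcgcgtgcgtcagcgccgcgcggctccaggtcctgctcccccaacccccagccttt
Nr1d1 intron peak: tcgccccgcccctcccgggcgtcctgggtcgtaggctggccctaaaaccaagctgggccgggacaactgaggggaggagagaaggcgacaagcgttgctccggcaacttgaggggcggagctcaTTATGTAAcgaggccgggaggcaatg
Nr1d2 promoter peak: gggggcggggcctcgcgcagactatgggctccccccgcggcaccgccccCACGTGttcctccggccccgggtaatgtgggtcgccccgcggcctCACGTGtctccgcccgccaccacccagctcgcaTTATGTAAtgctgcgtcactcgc
Nr6a1 promoter peak: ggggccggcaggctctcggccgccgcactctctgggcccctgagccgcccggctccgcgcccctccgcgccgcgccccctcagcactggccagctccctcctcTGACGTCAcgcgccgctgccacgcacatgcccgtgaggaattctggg
Nr6a1 intron peak: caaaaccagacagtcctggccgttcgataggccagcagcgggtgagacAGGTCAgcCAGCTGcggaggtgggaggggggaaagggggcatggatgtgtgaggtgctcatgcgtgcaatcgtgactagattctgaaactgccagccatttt
Nr2c1 distal peak: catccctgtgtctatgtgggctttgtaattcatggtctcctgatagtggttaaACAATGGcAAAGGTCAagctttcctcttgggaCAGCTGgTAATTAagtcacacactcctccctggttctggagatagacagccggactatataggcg
The Nr4a1 peak holds the CCAAT box once on each strand, and the Nr4a3 peaks hold the E-box CAGATG and the CCAAT box. The clock receptors share the D-box TTATGTAA, a site of the clock output factor Dbp, which is in the Nr1d1 peak and in the Nr1d2 promoter peak. The Nr1d2 peak also holds 2 copies of CACGTG, the E-box that CLOCK and BMAL1 bind. The Nr6a1 promoter peak holds the cyclic AMP response element TGACGTCA, and its intron peak the core motif AGGTCA beside an E-box of letters CAGCTG. The Nr2c1 peak, with scores of 72 and 26, holds the Sox motif ACAATGG, the homeodomain motif TAATTA and the same E-box. It also holds AAAGGTCA, the site of NR4A receptors, which itself contains the core motif.

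Matches to these motifs were also found in peaks of other genes, often for some motifs and rarely for others, such as the D-box. The D-box was in 1 of 89 promoter peaks of nuclear receptor genes in replicate 1 and 1 of 76 in replicate 2. Both lay at Nr1d2, and the shares were 1.12% and 1.32%, against 0.214% and 0.169% of promoter peaks of all genes. CACGTG was in 4 promoter peaks of nuclear receptor genes in each library, or 4.49% and 5.26%, against 5.28% and 5.26%. The core motif AGGTCA was in 8 promoter peaks in each library, or 8.99% and 10.5%, against 5.18% and 5.14%, and in 10.3% and 8.09% of the members' distal peaks, against 10.4% and 10.2%. AAAGGTCA was in 9 distal peaks in replicate 1 and 3 in replicate 2, or 1.45% and 0.638%, against 1.10% and 0.847%. Among distal peaks the CCAAT box was in 112 and 81 of the members' peaks, or 17.2% in replicate 2, against 18.1% and 16.5% over all genes. The E-box CAGATG was in 16.2% and 16.2%, against 17.1% and 16.6%, and the E-box CAGCTG in 13.5% and 17.4%, against 15.7% and 17.1%. The Sox motif was in 4.34% and 2.77%, against 3.11% and 2.68%, and the homeodomain motif in 4.98% and 3.40%, against 3.84% and 2.53%. The D-box was in 0.322% and 0.213% of distal peaks, against 0.467% and 0.313%. The cyclic AMP response element was in 1.12% and 1.32% of the members' promoter peaks, against 1.65% and 1.73%, and the Sp box in 38.2% and 42.1%, against 42.3% and 45.2%.

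Longer receptor elements were rare. The steroid receptor palindrome was in 4 and 1 of the members' distal peaks, or 0.643% and 0.213%, against 0.292% and 0.269% over all genes. The site of ERR receptors and SF-1 was in 2 and 1, or 0.322% and 0.213%, against 0.295% and 0.274%. The ROR element was in 1 and 0, against 0.107% and 0.0870%. Pairs of the core motif and the REST core were in 0 of the members' peaks in either library. Over all genes each kind of pair was in at most 0.0944% of peaks, and the REST core in 0.0876% to 0.266%. At such shares 0 matches say little about the members. A match is a run of letters and shows no binding.

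The genes that work with nuclear receptors were read from lists of related genes. All 20 coregulators were open at the promoter in both libraries, beside 66.5% of all genes. They had a median of 9.00 distal peaks, the same as the receptors, and among those with many were Tbl1xr1, a part of a corepressor complex, with 88 and 27, and Nrip1, a ligand-dependent corepressor, with 50 and 31. Of 12 genes that make, import or break down ligands 5 were open in both libraries, which is 41.7%. The exact binomial interval, 15.2% to 72.3%, includes the 66.5% of all genes. No promoter peak was found in either library at Dio2, which activates thyroid hormone, Hsd11b1, which activates glucocorticoids, Cyp19a1, which makes estrogens, Cyp27b1, which activates vitamin D, and Cyp11a1, which starts steroid synthesis. Slco1c1, a thyroid hormone transporter, and Star, which carries cholesterol into mitochondria, were open in a single library. Dio3, which inactivates thyroid hormone, was open and had the most distal peaks of this list, 45 and 27, followed by Cyp11a1 with 15 and 17 and Dio2 with 20 and 11.

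Of 16 target genes of metabolic receptors 9 were open in both libraries, which is 56.2%. The exact binomial interval, 29.9% to 80.2%, includes the 66.5% of all genes. The 7 targets open in neither library were Cyp7a1, the rate-limiting enzyme of bile acid synthesis, Cyp8b1, Abcb11, Cyp3a11, Cyp2b10, Fabp1 and Slc10a1. All 7 are genes of liver function. Targets shared with other tissues, such as Abca1, Abcg1, Srebf1 and Cpt1a, were open. The most distal peaks lay at Abca1, a cholesterol exporter, with 23 and 18, followed by Cyp2b10 with 10 and 15 and Abcg1 with 7 and 8.

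The tissue label was checked against markers. All 6 neural progenitor markers, among them Sox2 and Pax6, and all 4 neuron markers were open in both libraries, and the 5 liver and 3 photoreceptor markers were open in neither. Of 5 adrenal and gonad markers none was open in both libraries. The erythroid globin genes Hbb-bt and Hba-a1 and the erythroid regulator Klf1 had no promoter peak. Plin1, 1 of 3 fat markers, and Cdx2, 1 of 2 gut markers, were open, while Adipoq, Fabp4 and Vil1 had no promoter peak. Cdx2 is also a regulator of the posterior neural tube.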

How the data were processed

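DNase-seq of neural tube was used from 2 libraries of 1 group. Each library has its own deposited lists of peaks and hotspots on mm10. The deposited peak score is a whole number per peak of 150 bp, and the deposited hotspot value is a −log10 q-value. Aligner, peak caller and thresholds were not given in the sources used here. The files hold no read counts, so the depth is unknown.

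Rows repeating a position were removed (45 in replicate 1, 22 in replicate 2). GENCODE vM21 gave 21853 protein-coding genes on the main chromosomes with 54361 TSSs. Peaks in both libraries overlapped by at least 1 bp. Intervals are exact binomial (Clopper-Pearson) at 95%, and no p-value was computed. Motifs were searched on both strands. For nuclear receptors they were the core AGGTCA, the NR4A site AAAGGTCA, the ERR and SF1 site TCAAGGTCA, the ROR element, direct and inverted pairs of the core, and the steroid receptor palindrome; the ROR, NR4A, ERR and pair motifs contain the core. For other factors they were the CRE TGACGTCA, E-boxes with letters CAGCTG or with CAGATG or with CACGTG, the D-box TTATGTAA, the Sox motif ACAATGG, the homeodomain motif TAATTA, the REST core, the Sp box GGGCGG and the CCAAT box, the last added after the sequences were seen.

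Full values were given to members without a promoter peak, the 10 with the most distal peaks, the extremes of each subfamily, members with promoters in different states, members over 2-fold apart between libraries, and the 10 best-ranked shared distal peaks. Some genes that the rule for related lists names are not reported here. Members, lists and rules were chosen with earlier results of these data known. The counting steps were tested on simulated data. Python 3.11.15, numpy 2.4.6, scipy 1.17.1, pysam 0.24.0, samtools 1.23.1 and matplotlib 3.10.9 were used.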

Additional observations from a re-analysis of the deposited data

How the results depend on the processing

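No paired analysis was possible because the labels define 1 group only. The number of members open in both libraries was 33 and stayed between 31 and 33 under every alternative run with all 38 genes: Nr1h4 was lost in the higher-scoring 50% of each list, and Nr1h4 and Nr5a1 with 200 bp to either side of a TSS. The mean of 14.4 distal peaks per member became 5.71 in the higher-scoring 50% of each list and 8.11 within 50 kb of a TSS. Members in the top 10% numbered 11 and became 6 per Mb of territory. The share of distal peaks found in both libraries, 52.2% as the mean of both directions, became 73.8% in the higher-scoring 50%. The share of open promoters was 18.6 percentage points higher in neural than in metabolic receptors, and the difference became 25.7 in the higher-scoring 50%, 25.7 with 200 bp to either side of a TSS and 20.8 without Vdr. The ratio of median distal peaks, neural over metabolic, was 4.59 and became 9.00 in the higher-scoring 50% and 1.05 per Mb of territory. The cause of these shifts was not tested. Leaving out either replicate gave 33 to 33 open members, 12.4 to 16.4 distal peaks per member, 9 to 11 members in the top 10%, 44.2% to 60.2% shared peaks, 18.6 to 18.6 percentage points, a ratio of 3.11 to 6.50 and 46 to 47 open promoters, against 45 as reported. Leaving out Vdr, the CpG classes, the runs of peaks and the noncoding TSSs were chosen after the data were seen. The depth is unknown, so a gene without a peak is not shown to be closed.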
